A study of Homo sapiens with 39 samples.

Results

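The 43 genes described here are 20 cytosolic aminoacyl-tRNA synthetases, 13 mitochondrial aminoacyl-tRNA synthetases and 10 stress genes driven by the transcription factor ATF4. They were picked by symbol, as a list of named genes, from a table of 46706 gene symbols, with earlier results of these data known, and each symbol matched 1 row of the table. RNA was sequenced from HCC1428-LTED cells, a human breast cancer line kept without estrogen for a long time, after 24 h with 1 of 6 estrogen receptor ligands or with the vehicle DMSO. Each ligand was given at 30 nM and at 300 nM, and each of the 13 groups held 3 libraries, 39 in all. Fulvestrant is the degrader in standard clinical use, and AZD9496, GDC-0810 and SAR439859 are other degraders of the estrogen receptor. By the labels, AZD-SAR and GDC-SAR are hybrid molecules that carry the SAR439859 side chain on the AZD9496 and GDC-0810 scaffolds. All groups, DMSO included, were grown in medium with charcoal-stripped serum, and all come from 1 cell line. Values are TPM, transcript abundances scaled for transcript length and library total, and a gene was tested where its mean over the 39 libraries was at least 1 TPM. That left 14404 genes, of which 42 belong to the set, CHAC1 being the member under the limit.

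Aminoacyl-tRNA synthetases join each amino acid to its tRNA and so set up the supply of charged tRNA for protein synthesis in the cytosol and, by a separate set of nuclear genes, in mitochondria. When amino acids run short or unfolded protein builds up in the endoplasmic reticulum, kinases phosphorylate the initiation factor eIF2α, general translation slows and translation of ATF4 rises. ATF4 then binds C/EBP-ATF response elements and turns on asparagine synthetase, enzymes of serine synthesis, amino acid transporters and many of the cytosolic synthetases. Because ATF4 is controlled largely at translation, its own mRNA need not move when its targets do.

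The promoters of the set were searched for the core of the C/EBP-ATF response element, and those of 7 members are printed here. They are RefSeq windows on GRCh38.p14 from 100 bases before the transcript start to the 30 bases from it on. The 7 were picked for a match in this window, or for a rise against DMSO without one. Capitals mark TGATGNAA or its reverse complement, the letters searched for as the core of the C/EBP-ATF response element. ASNS encodes asparagine synthetase and is the classical ATF4 target, TARS, IARS, MARS and CARS encode cytosolic synthetases with a match beside the start, and QARS and DDIT4, with no match, are members that rose against DMSO. NARS, not printed, also has a match within such a window.
ASNS, chr7:97872379-97872508, minus strand: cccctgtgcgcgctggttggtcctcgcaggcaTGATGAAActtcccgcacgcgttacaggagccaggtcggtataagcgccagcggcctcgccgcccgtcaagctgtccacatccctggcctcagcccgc
TARS, chr5:33440865-33440994, plus strand: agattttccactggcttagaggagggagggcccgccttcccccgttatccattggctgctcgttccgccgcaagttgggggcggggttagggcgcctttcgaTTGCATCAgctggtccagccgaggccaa
IARS, chr9:92293668-92293797, minus strand: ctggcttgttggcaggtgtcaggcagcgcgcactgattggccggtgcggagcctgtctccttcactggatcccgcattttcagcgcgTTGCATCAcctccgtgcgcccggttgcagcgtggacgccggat
MARS, chr12:57487968-57488097, plus strand: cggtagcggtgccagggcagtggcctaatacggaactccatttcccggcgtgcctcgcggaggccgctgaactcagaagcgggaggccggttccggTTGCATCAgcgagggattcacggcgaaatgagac
CARS, chr11:3057394-3057523, minus strand: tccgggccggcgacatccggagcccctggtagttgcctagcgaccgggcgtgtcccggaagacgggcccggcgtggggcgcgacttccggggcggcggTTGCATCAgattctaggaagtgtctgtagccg
QARS, chr3:49104728-49104857, minus strand: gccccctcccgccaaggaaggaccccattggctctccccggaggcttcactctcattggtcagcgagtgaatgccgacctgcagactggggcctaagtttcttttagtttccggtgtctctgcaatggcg
DDIT4, chr10:72273824-72273953, plus strand: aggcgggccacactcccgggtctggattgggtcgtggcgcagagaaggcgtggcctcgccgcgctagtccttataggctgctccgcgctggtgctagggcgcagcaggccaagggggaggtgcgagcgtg

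RefSeq promoters, each 250 bases before and 50 bases after the start, were at hand for 37 of the 43 members, all but DARS, LARS, VARS, YARS, AARS2 and VARS2. TGATGNAA occurred on either strand in 10 of the 37 (27.0%), against 3.62% of 35116 promoters. By subset it occurred in 6 of 16 cytosolic synthetases (37.5%), 1 of 11 mitochondrial synthetases (9.09%) and 3 of 10 stress genes (30.0%). The E-box letters CACGTG, which do not overlap in sequence with that motif, were in 5 of the 37 member promoters (13.5%), against 7.26% of all. The full palindromic estrogen response element was in 0 of the 37 and in 0.057% of all promoters. A match describes the letters in this window and is not a measured binding site, and a window without one says nothing of the factor. The stress genes were listed as driven by ATF4, and the shares were not tested.

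The cells had the markers of their label. The luminal markers ESR1, GATA3, FOXA1, KRT8, KRT18, KRT19 and EPCAM were all above the limit of 1 TPM, while 9 of 11 markers of immune, endothelial, stromal and basal cells were under it, with CD68 and COL1A1 the 2 above. COL1A1 was higher with AZD-SAR and GDC-SAR at both doses (14.3 ± 3.43 TPM with AZD-SAR 30 nM, against 8.14 ± 0.965 TPM with DMSO) and CD68 lower with SAR439859 30 nM (5.23 ± 1.44 TPM, against 7.84 ± 0.793 TPM), and their part in the results was not tested. The estrogen-induced genes PGR, GREB1, TFF1 and MYC were lower than DMSO with every ligand at both doses. Libraries listed 15818 to 26756 genes above 0, and pairs within a group correlated at 0.8784 to 0.9758. Replicate 3 of SAR439859 at 30 nM, with 15818 genes, stood apart. Calls of members in pairwise comparisons that were lost without it are marked. Values given for genes outside the set, CD68 among them, all include it. Because these are bulk libraries, fewer cells of a kind and less RNA per cell cannot be told apart. The labels give 3 libraries a group and do not say that they are separate cultures, and the series text speaks of duplicates, so p-values measure the spread between these libraries, which may be technical. All 12 comparisons with DMSO use the same 3 DMSO libraries, and 2 of these 3 carry an index sequence that a treated library also carries, while no pair among the 36 treated libraries does. No pool or lane is labelled, so in comparisons with DMSO a difference in pool and the ligand cannot be told apart.

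Against DMSO the set did not move as a block. Over the 12 comparisons, 16 of 42 tested members passed the test at least once (limma, adjusted p below 0.05, Benjamini-Hochberg over all genes tested), 6 of them only higher and 10 only lower, and 26 never did. That is 38.1% of the members, against 45.8% of all tested genes, with 14.3% higher at least once, against 25.5% of all tested genes, and 23.8% lower at least once, against 20.3%. With Fulvestrant 30 nM, 3 members were higher and 4 lower (16.7% of the members), against 11.3% and 7.82% of all tested genes (19.1% together). With AZD-SAR 30 nM, 3 were higher and 5 lower (19.0%), against 11.9% and 8.66% of all genes (20.6%). With GDC-SAR 30 nM, 3 were higher and 4 lower (16.7%), against 11.4% and 11.1% (22.5%). The lowest count at this dose was with AZD9496, 3 higher and 0 lower (7.14%), against 9.21% and 2.05% (11.3%). GDC-0810 30 nM gave 4 higher and 3 lower (16.7%), against 7.95% and 8.83% (16.8%). SAR439859 30 nM gave 5 higher and 6 lower (26.2%), against 15.3% and 10.2% (25.5%), and without its replicate 3 the 11 calls became 7.

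At 300 nM the counts were 3 higher and 2 lower with Fulvestrant (11.9% of the members), against 11.1% and 8.12% of all genes (19.2%). AZD-SAR gave 4 higher and 4 lower (19.0%), against 12.7% and 12.8% (25.6%). GDC-SAR gave 3 higher and 4 lower (16.7%), against 9.76% and 10.5% (20.3%). AZD9496 again gave the lowest count, 1 higher and 0 lower (2.38%), against 3.71% and 2.21% (5.93%). GDC-0810 gave 4 higher and 5 lower (21.4%), against 6.99% and 9.04% (16.0%), and SAR439859 gave 3 higher and 5 lower (19.0%), against 11.2% and 12.8% (24.1%). Most of these shares lie near or under the share of all genes, so the number of calls is no result about the set, and what follows is which members moved and which way. Over all called genes, the part that was higher shifts under median-of-ratios scaling, from 59.06% to 45.91% for Fulvestrant 30 nM, 57.99% to 47.49% for AZD-SAR 30 nM, 81.76% to 44.04% for AZD9496 30 nM and 59.90% to 47.38% for SAR439859 30 nM. At 300 nM it shifts from 57.67% to 46.99% for Fulvestrant and from 62.65% to 42.79% for AZD9496.

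**Figure D1:**
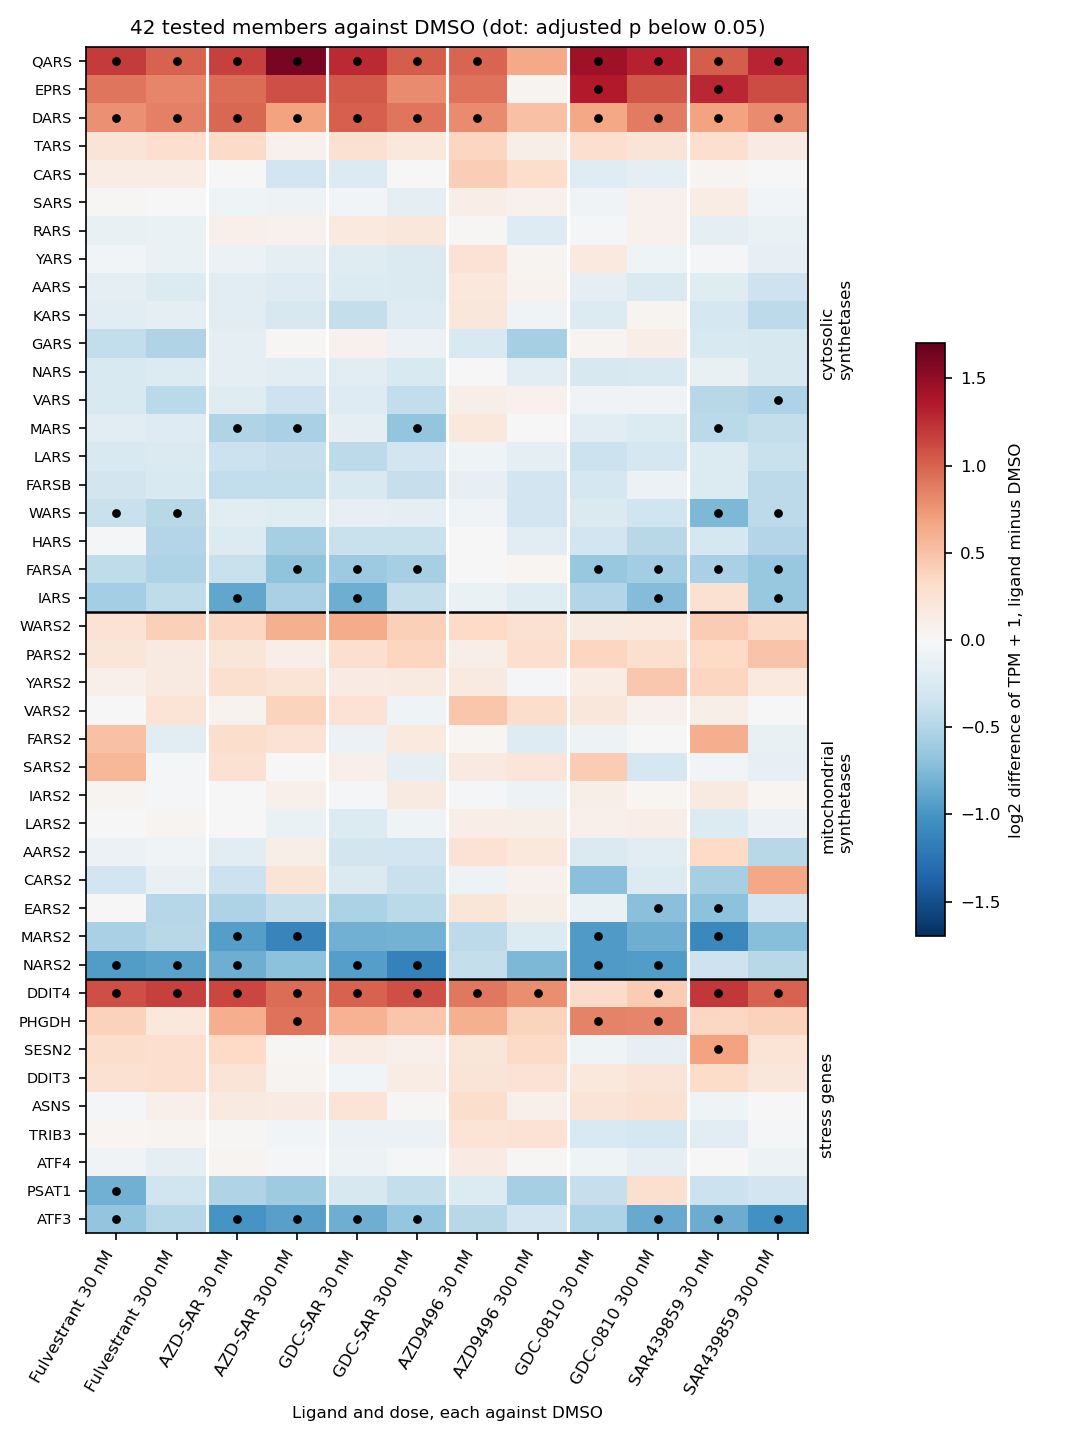
Log2 difference of TPM + 1, ligand minus DMSO, for the 42 tested members (rows, in 3 subsets, each ordered by mean difference) and the 12 ligand and dose groups (columns). Dots mark adjusted p below 0.05: QARS, DARS and DDIT4 are dotted in 11 columns each, ATF4, DDIT3, ASNS and TRIB3 in none.

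The plot of log2 differences shows this split within each subset. QARS, EPRS and DARS head the cytosolic synthetases and DDIT4 heads the stress genes; QARS, DARS and DDIT4 were each higher in 11 of 12 comparisons and EPRS in 2. At the other end of their subsets stand IARS and FARSA, NARS2 and MARS2, and ATF3. Of the cytosolic synthetases, 3 of 20 were higher at least once, 5 lower and 12 never called. Among the mitochondrial ones, 0 of 13 were higher, 3 lower and 10 never called, and of the 9 tested stress genes 3 were higher, 2 lower and 4 never called. Beside these counts, 25.5% of all tested genes were higher at least once, 20.3% lower at least once and 54.2% never called, and the counts are a description of which members moved. They hold for the values as deposited. Under median-of-ratios scaling NARS with Fulvestrant 30 nM (-0.36, adjusted p = 0.029) and AARS with SAR439859 30 nM (-0.32, adjusted p = 0.0185), both counted as never called, passed as lower.

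QARS, the glutaminyl-tRNA synthetase (chromosome 3, 49095932 to 49105135 on the minus strand, GRCh38), was the most abundant synthetase, with a mean of 254 TPM over all libraries. Its levels were 393, 210 and 217 TPM with Fulvestrant 30 nM and 242, 267 and 185 TPM with Fulvestrant 300 nM, against 118, 98.9 and 128 TPM with DMSO. AZD-SAR gave QARS levels of 274, 265 and 236 TPM at 30 nM and 362, 403 and 296 TPM at 300 nM, and GDC-SAR gave 297, 281 and 252 TPM and 235, 310 and 179 TPM. Every one of these libraries lay above all 3 DMSO libraries.
The parent ligand AZD9496 gave 315, 184 and 206 TPM at 30 nM and 199, 181 and 159 TPM at 300 nM. This 300 nM group had the lowest mean of QARS among the treated groups. GDC-0810 gave 324, 327 and 284 TPM and 350, 298 and 218 TPM, and SAR439859 gave 354, 206 and 178 TPM and 310, 360 and 199 TPM, at 30 and 300 nM. All 36 treated libraries, 159 to 403 TPM with a median of 266, were above every DMSO library. On the log2(TPM + 1) scale the difference from DMSO was 1.61 ± 0.26 (SE) with AZD-SAR 300 nM (adjusted p = 2.51e-05) and 1.44 ± 0.26 with GDC-0810 30 nM (adjusted p = 0.000301). It was 0.65 with AZD9496 300 nM, which did not pass (adjusted p = 0.149), and 0.99 to 1.30 in the 9 others. The AZD9496 30 nM call (adjusted p = 0.011) was lost without its own replicate 1 or DMSO replicate 2, at an adjusted p of up to 0.0993, and the other 10 calls of QARS were kept when any 1 library was left out. The SAR439859 30 nM call was lost when only the libraries compared were fitted (adjusted p = 0.074).

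DARS, the aspartyl-tRNA synthetase (chromosome 2, 135906677 to 135986100, minus strand), lay at 41.2, 28.4 and 28.2 TPM with DMSO and at 32.4 to 77.6 TPM, median 57.1, in the treated libraries. GDC-SAR 30 nM had the largest difference, with 69.3, 71.6 and 58.2 TPM (log2 difference 1.02 ± 0.20 SE, adjusted p = 0.000436). AZD9496 300 nM had the smallest, with 59.2, 50 and 32.4 TPM (0.50, adjusted p = 0.156), and was the group that did not pass, although it did without its replicate 3 (adjusted p = 0.0337). In all, 34 of the 36 treated libraries were above every DMSO library, and the groups overlapped DMSO with AZD9496 300 nM and AZD-SAR 300 nM only. Of the 11 calls 7 were kept whichever library was left out. Those with AZD-SAR 300 nM and with AZD9496, GDC-0810 and SAR439859 at 30 nM were lost without DMSO replicate 2 or 3. The AZD9496 call was lost without AZD9496 replicate 1 too, and the GDC-0810 call without GDC-0810 replicate 2 (adjusted p up to 0.107 over all these omissions). The AZD9496 30 nM call was also lost under median-of-ratios scaling (adjusted p = 0.0781). The antisense gene DARS-AS1 averaged 0.832 TPM in the table. EPRS, which joins glutamate and proline to their tRNAs, was called higher with GDC-0810 30 nM (63.1, 42.7 and 25.8 TPM, log2 difference 1.35, adjusted p = 0.0427) and SAR439859 30 nM (47.0, 34.5 and 37.8 TPM, 1.29, adjusted p = 0.0394), against 27.0, 11.8 and 11.8 TPM with DMSO. It had the widest spread within groups of any member, an SD of 0.598 on the log2 scale, and 10 of its 12 treated groups overlapped DMSO. Each of these EPRS calls was lost on leaving out any of 4 libraries, DMSO replicates 2 and 3 among them. The adjusted p was up to 0.219 with GDC-0810 and 0.145 with SAR439859. For the SAR439859 30 nM call these libraries include its replicate 3, which stands apart (adjusted p = 0.0669).

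QARS, DARS and EPRS all belong to the multisynthetase complex, the cytosolic assembly of 8 synthetases held by the scaffold proteins AIMP1, AIMP2 and EEF1E1. The other members of the complex did not share the direction: MARS and IARS were called lower in 4 comparisons each, and KARS, LARS and RARS in none. The median difference from DMSO over the 8 synthetases ran from -0.24 with SAR439859 300 nM to 0.18 with AZD9496 30 nM. Over all tested genes the medians ran from 0 to 0.19.

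**Figure D2:**
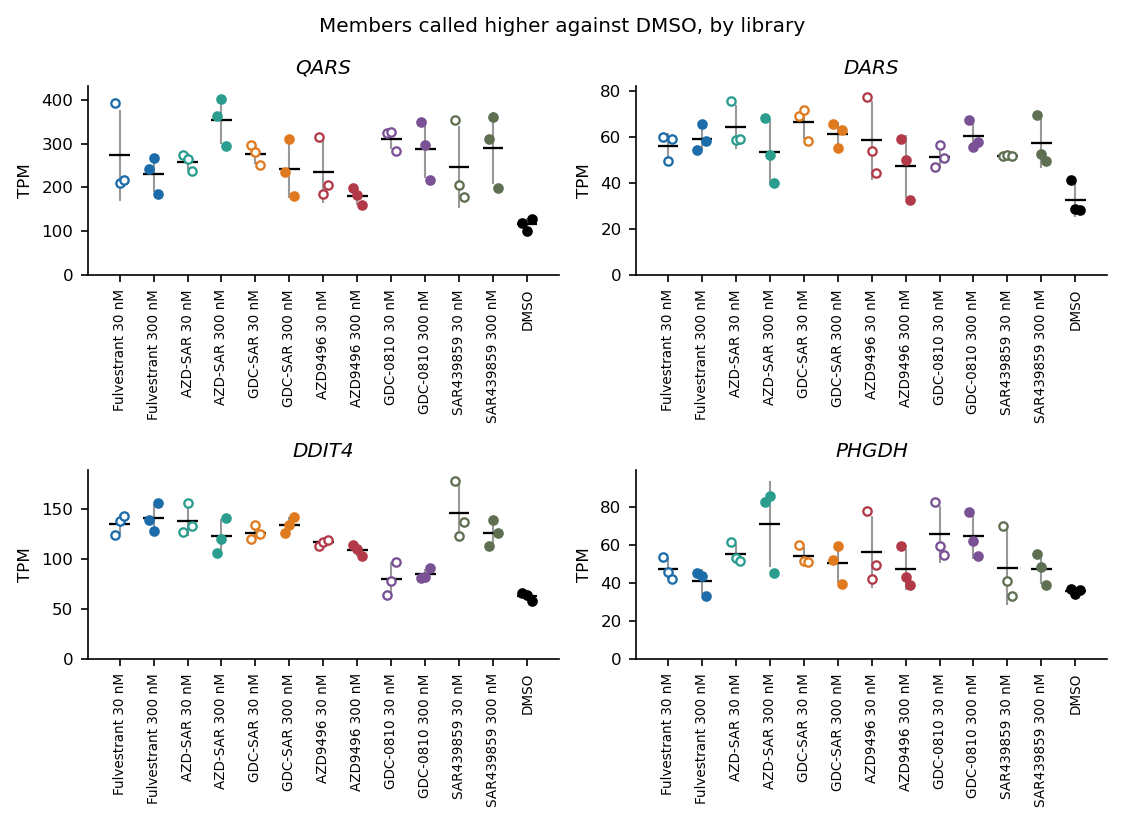
TPM of QARS, DARS, DDIT4 and PHGDH in each of the 39 libraries, with the group mean (black line) and SD (grey bar), n = 3 per group. Open points are 30 nM, filled points 300 nM, and DMSO is at the right in black; the treated QARS libraries lie at 159 to 403 TPM and the DMSO libraries at 98.9 to 128 TPM.

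FARSA, the alpha chain of the phenylalanyl-tRNA synthetase, was lower in 7 comparisons. AZD-SAR 300 nM had 22.4, 24.6 and 39.4 TPM, against 44.7, 45.5 and 45.9 TPM with DMSO (log2 difference -0.68 ± 0.19 SE, adjusted p = 0.0081). The other FARSA calls lay between -0.65 and -0.55, with GDC-SAR, GDC-0810 and SAR439859 at both doses. AZD9496 gave 47.1, 46.5 and 41.8 TPM at 30 nM and 52.7, 45.1 and 42.5 TPM at 300 nM. It was the only ligand whose FARSA libraries overlapped DMSO. A difference among the 6 ligands did not pass for FARSA at 30 nM or 300 nM (limma F test, adjusted p = 0.168 and 0.0841). FARSB, the beta chain of the same enzyme, was not called in any comparison (-0.44 to -0.09). Each of the 7 FARSA calls was lost without at least 1 of the libraries compared, at an adjusted p of up to 0.175. The SAR439859 30 nM call was lost without its replicate 3, the library that stands apart (-0.46, adjusted p = 0.111), among others.

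IARS, the isoleucyl-tRNA synthetase, was lower with AZD-SAR 30 nM, at 5.71, 5.33 and 6.70 TPM against 13.7, 10.2 and 11.5 TPM with DMSO (log2 difference -0.88 ± 0.22 SE, adjusted p = 0.00515). It also passed with GDC-SAR 30 nM (6.57, 7.07 and 5.07 TPM, -0.82), GDC-0810 300 nM (6.90, 6.47 and 6.54 TPM, -0.74) and SAR439859 300 nM (5.86, 6.20 and 9.83 TPM, -0.65). With SAR439859 30 nM IARS had its highest group mean, from 13.1, 12.6 and 17.5 TPM, a difference from DMSO of 0.26 that did not pass (adjusted p = 0.422). The 17.5 TPM belong to the library that stands apart. The AZD-SAR call was kept whichever library was left out, the GDC-SAR call was lost without its replicate 3 (adjusted p = 0.0531), and the calls with GDC-0810 300 nM and SAR439859 300 nM were each lost on leaving out any of 4 libraries (adjusted p up to 0.0993 and 0.16).

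MARS, the methionyl-tRNA synthetase, was lower with GDC-SAR 300 nM, at 48.6, 45.3 and 37.5 TPM against 73, 78.5 and 60 TPM with DMSO (log2 difference -0.67 ± 0.15 SE, adjusted p = 0.00201). AZD-SAR at both doses (-0.51 and -0.55) and SAR439859 30 nM (-0.46) also passed. The first of these was kept whichever library was left out, and the other 3 were lost without DMSO replicate 2 among others (adjusted p up to 0.133). AZD9496 gave 77.8, 83.9 and 75.8 TPM at 30 nM, overlapping DMSO. The 3′ end of MARS overlaps DDIT3 on the opposite strand (chromosome 12, MARS 57475445 to 57517569, DDIT3 57516588 to 57521737), and whether the reads were counted by strand is not given in the sources used here. MARS averaged 59.3 TPM and DDIT3 7.35 TPM. Without strand, reads of the 2 genes in the shared stretch could not be told apart. DDIT3 also overlaps MBD6 (53.6 TPM) on the opposite strand.

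WARS, the tryptophanyl-tRNA synthetase, was lower with SAR439859 30 nM, at 76.7, 86.2 and 66.1 TPM against 131, 127 and 131 TPM with DMSO (log2 difference -0.76 ± 0.13 SE, adjusted p = 6.07e-05, and -0.66 without replicate 3). It was also lower with SAR439859 300 nM (-0.44) and with Fulvestrant at 30 nM (-0.37) and 300 nM (-0.47). The Fulvestrant 30 nM call was lost whichever of its 6 libraries was left out (adjusted p up to 0.118), and the calls at 300 nM without replicate 1 of the ligand (adjusted p = 0.0645 for Fulvestrant and 0.066 for SAR439859). VARS, the valyl-tRNA synthetase, passed with SAR439859 300 nM alone (-0.52, adjusted p = 0.0401), and was lost on leaving out any of 4 libraries (adjusted p up to 0.138). The most abundant synthetases that never passed were TARS (mean 97.8 TPM, differences 0.07 to 0.36) and GARS (mean 90.6 TPM, differences -0.56 to 0.11), which charge threonine and glycine tRNAs. The remaining 10 cytosolic synthetases that were never called had differences between -0.57 (HARS with AZD-SAR 300 nM) and 0.42 (CARS with AZD9496 30 nM).

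The median difference of the 20 cytosolic synthetases was below the median of all tested genes in each of the 12 comparisons, which share their DMSO libraries. It lay between -0.31 with SAR439859 300 nM and 0.11 with AZD9496 30 nM, and at 0.03 with AZD9496 300 nM. These last 2 medians turn to -0.10 and -0.08 when libraries are scaled by median of ratios, which shifts the median of all genes with AZD9496 30 nM by 0.18 (0.19 as deposited, 0.00 scaled). The position below all genes was not particular to the cytosolic set: the median of 8 amino acid transporters was also below the median of all tested genes in 12 of 12 comparisons, at -0.63 to -0.01. The median of the 13 mitochondrial synthetases (-0.10 to 0.11) and that of the 9 stress genes (-0.07 to 0.24) were each below it in 8 of 12. The 12 cytosolic synthetases with a textbook link to ATF4 had medians from -0.27 to 0.15, and the 8 others from -0.45 to 0.06.

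**Figure D3:**
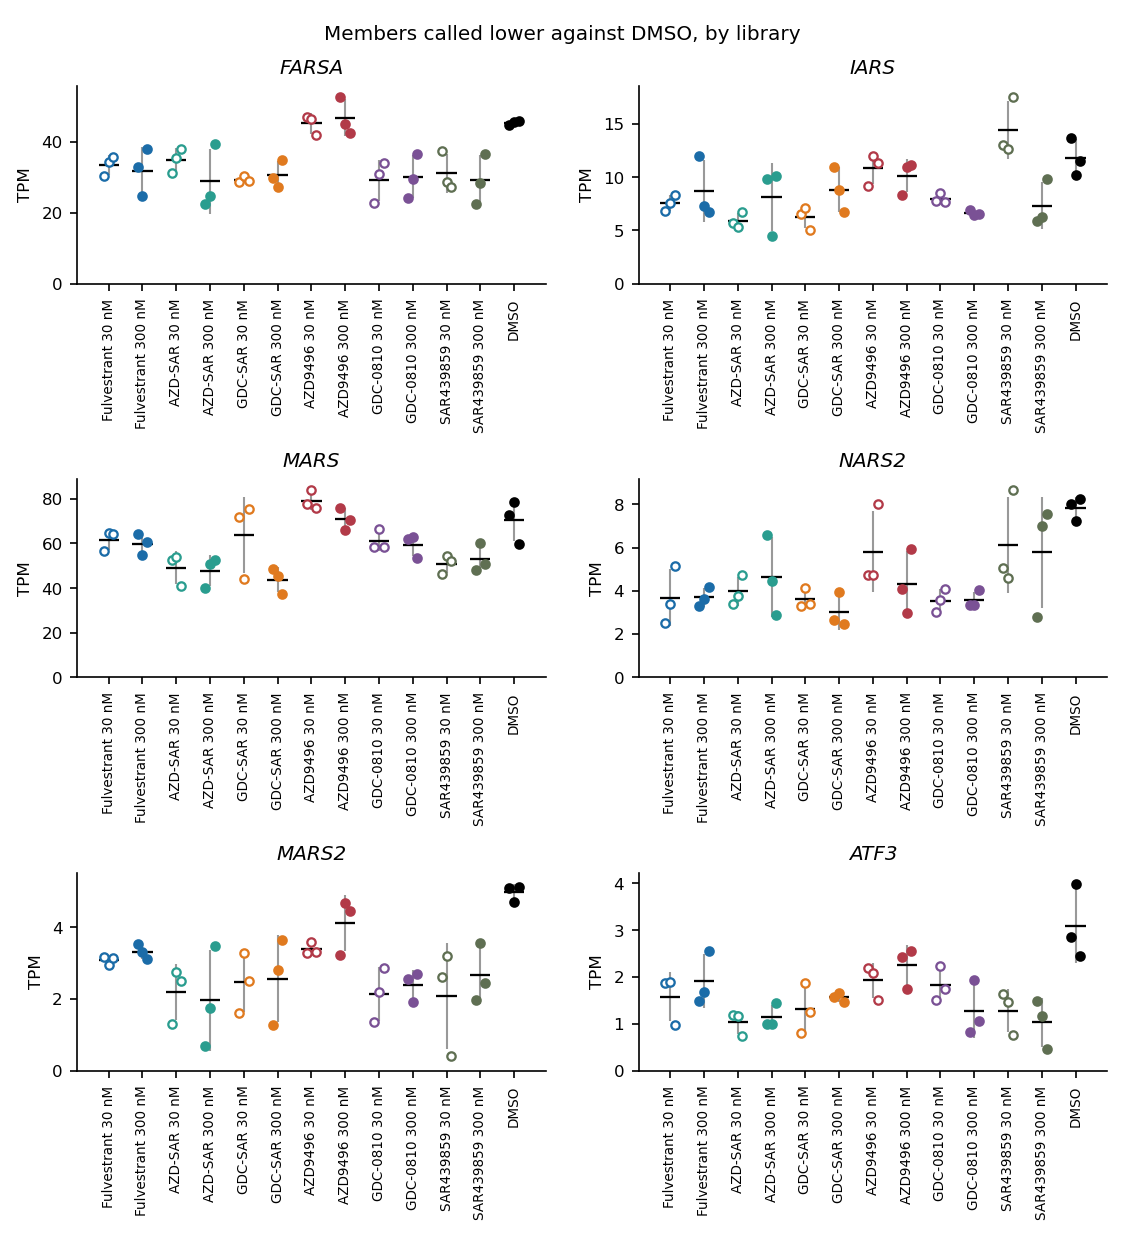
TPM of FARSA, IARS, MARS, NARS2, MARS2 and ATF3 in each library, with the group mean (black line) and SD (grey bar), n = 3 per group. Open points are 30 nM, filled points 300 nM, DMSO black at the right; all 36 treated MARS2 libraries (0.418 to 4.69 TPM) lie below the 3 DMSO libraries (4.70 to 5.13 TPM).

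The mitochondrial synthetases were expressed at lower levels, from 1.92 TPM for LARS2 to 21.7 TPM for VARS2, with a median of 4.98 TPM, against 43.6 TPM for the cytosolic set. NARS2, the mitochondrial asparaginyl-tRNA synthetase (chromosome 11, 78435961 to 78574874, minus strand), was the mitochondrial member called most often. GDC-SAR 300 nM had 2.64, 3.94 and 2.45 TPM, against 8.01, 7.22 and 8.24 TPM with DMSO (log2 difference -1.15 ± 0.27 SE, adjusted p = 0.00304). NARS2 was also lower with GDC-SAR 30 nM (-0.94), with Fulvestrant and GDC-0810 at both doses (-0.96 to -0.92) and with AZD-SAR 30 nM (-0.84). Neither AZD9496 nor SAR439859 passed at any dose, with differences of -0.76 to -0.36. Of the 36 treated libraries, 33 lay below every DMSO library. Both GDC-SAR calls were kept whichever library was left out, and the other 5 were each lost without at least 1 library, replicate 1 of the ligand among them (adjusted p up to 0.103).

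MARS2, which charges the mitochondrial methionine tRNA, had 5.10, 4.70 and 5.13 TPM with DMSO, and all 36 treated libraries lay below that. It passed with AZD-SAR 300 nM (0.683, 1.74 and 3.48 TPM, log2 difference -1.12 ± 0.32 SE, adjusted p = 0.0106), AZD-SAR 30 nM (-0.94), GDC-0810 30 nM (-0.96) and SAR439859 30 nM (2.61, 3.21 and 0.418 TPM, -1.10). Without replicate 3 of SAR439859 30 nM, the 0.418 TPM library, the last of these was -0.62 with an adjusted p of 0.142. The AZD-SAR 300 nM call was lost without its replicate 1 (adjusted p = 0.11), and the calls with AZD-SAR 30 nM and GDC-0810 30 nM without any of 5 libraries (adjusted p up to 0.184 and 0.2). At these levels log2(TPM + 1) understates a fold change.

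EARS2, the mitochondrial glutamyl-tRNA synthetase, was lower with GDC-0810 300 nM (10.8, 13.6 and 11.9 TPM, against 17.6, 19.0 and 24.9 TPM with DMSO, log2 difference -0.71, adjusted p = 0.03), a call lost without any of 4 libraries (adjusted p up to 0.146). With SAR439859 30 nM it was -0.70 (adjusted p = 0.0214), and -0.36 without replicate 3 (adjusted p = 0.218). EARS2, at a mean of 16.8 TPM, overlaps UBFD1 (50.7 TPM) on the opposite strand, so the same limit holds for it. The other 10 mitochondrial synthetases were never called. Among them were WARS2 (0.15 to 0.63) and CARS2 (-0.70 to 0.65), the tryptophan and cysteine enzymes, and VARS2, the most abundant, ranged from -0.07 to 0.47. CARS2 libraries spread from 8.74 to 44.7 TPM with the ligands and from 14 to 22.4 TPM with DMSO, and overlapped DMSO in 11 of 12 groups.

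Of the core of the stress response, ATF4, DDIT3, ASNS and TRIB3, 0 genes passed the limma test in any comparison with DMSO, and 0 had an unadjusted p under 0.05. ATF4 mRNA lay at 69.0 to 123 TPM in the treated libraries, median 85.3, against 101, 87.4 and 81.0 TPM with DMSO, with log2 differences of -0.17 to 0.14. DDIT3, which encodes the transcription factor CHOP that acts downstream of ATF4, lay at 4.34 to 10.1 TPM, median 7.50, against 5.57, 5.46 and 8.17 TPM with DMSO (-0.04 to 0.31). ASNS lay at 9.89 to 20.3 TPM, median 14.6, against 13.5, 13.4 and 13.3 TPM (-0.08 to 0.29). TRIB3, a pseudokinase that ATF4 and CHOP induce, lay at 6.19 to 14.7 TPM, median 10.7, against 9.88, 12.5 and 10.2 TPM (-0.30 to 0.25). For ATF4, DDIT3 and TRIB3 every treated group overlapped the DMSO libraries, as the plot of these 4 genes by library shows. For ASNS, whose DMSO libraries lie close together, 7 of 12 groups did, and the other 5 lay above DMSO. Of the 36 treated ASNS libraries, 28 were above every DMSO library and 8 below. The standard errors of these differences were 0.14 for ATF4, 0.21 for DDIT3, 0.19 for ASNS and 0.21 for TRIB3.

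**Figure D4:**
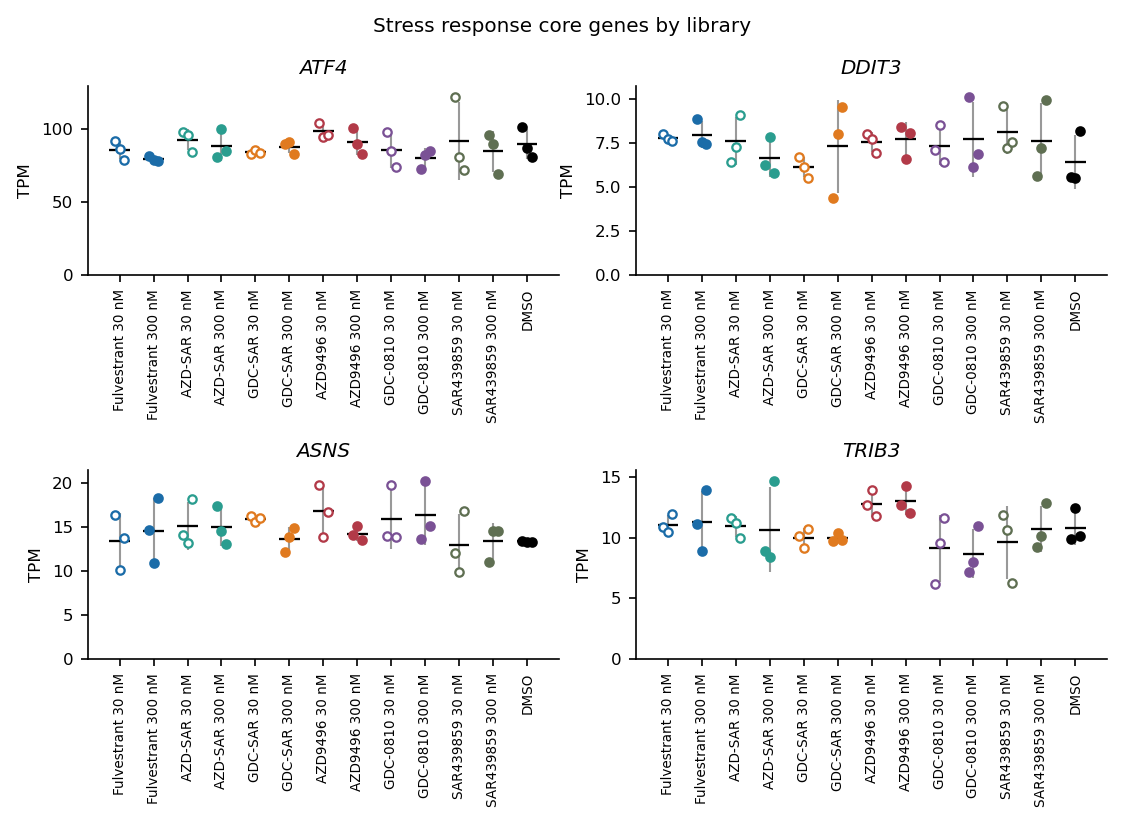
TPM of ATF4, DDIT3, ASNS and TRIB3 in each library, with the group mean (black line) and SD (grey bar), n = 3 per group. Open points are 30 nM, filled points 300 nM, DMSO black at the right; the treated ATF4 libraries spread over 69.0 to 123 TPM around the DMSO libraries at 81.0 to 101 TPM.

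DDIT4, which encodes the mTORC1 inhibitor REDD1 and answers to stress and to glucocorticoids as well as to ATF4, was the stress gene called most often. It had 123, 137 and 143 TPM with Fulvestrant 30 nM and 139, 127 and 155 TPM with Fulvestrant 300 nM, against 65.9, 63.5 and 57.4 TPM with DMSO. AZD-SAR gave 127, 155 and 132 TPM at 30 nM and 106, 120 and 141 TPM at 300 nM, and GDC-SAR gave 119, 134 and 125 TPM and 126, 134 and 142 TPM. All of these lay well above DMSO.
With AZD9496 the DDIT4 levels were 113, 117 and 119 TPM at 30 nM and 113, 110 and 103 TPM at 300 nM. GDC-0810 gave the lowest, 63.3, 77.4 and 97.0 TPM and 80.5, 82.0 and 90.5 TPM, and SAR439859 gave 178, 123 and 137 TPM and 113, 139 and 126 TPM. GDC-0810 30 nM was the 1 group that overlapped DMSO. The log2 difference from DMSO was between 0.79 (AZD9496 300 nM) and 1.2 (SAR439859 30 nM), with an SE of 0.13, for the 5 ligands other than GDC-0810, and the adjusted p was at most 0.000268. For GDC-0810 it was 0.32 at 30 nM (adjusted p = 0.091, and 0.045 under median-of-ratios scaling and 0.0305 without GDC-0810 replicate 1, both of which pass) and 0.43 at 300 nM (adjusted p = 0.025). The GDC-0810 300 nM call was lost on leaving out any of 4 libraries (adjusted p up to 0.107), and the other 10 calls were kept throughout.

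ATF3, another transcription factor of the stress response, went the other way and was lower in 8 comparisons. SAR439859 300 nM had 1.48, 1.17 and 0.450 TPM, against 2.85, 3.99 and 2.44 TPM with DMSO (log2 difference -1.03 ± 0.23 SE, adjusted p = 0.0015). AZD-SAR (-1.004 at 30 nM, -0.92 at 300 nM) and GDC-SAR (-0.83, -0.66) passed at both doses, as did SAR439859 30 nM (-0.85, and -0.67 with an adjusted p of 0.0501 without replicate 3). Fulvestrant passed at 30 nM (-0.67) and GDC-0810 at 300 nM (-0.86). The calls with AZD-SAR and with SAR439859 300 nM were kept whichever library was left out, and the others were lost without DMSO replicate 2 among others (adjusted p up to 0.209). With AZD9496 the differences were -0.47 and -0.33, neither of which passed. Of the treated libraries 34 of 36 lay below every DMSO library.

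PHGDH, the first enzyme of serine synthesis, was higher with AZD-SAR 300 nM (83.1, 86.0 and 45.2 TPM, against 36.9, 34.1 and 36.0 TPM with DMSO, log2 difference 0.93 ± 0.25 SE, adjusted p = 0.00679). It was also higher with GDC-0810 at 30 nM (0.84, adjusted p = 0.0202) and 300 nM (0.82, adjusted p = 0.0238). The first call was lost without AZD-SAR replicate 2 (adjusted p = 0.0536) and the others without GDC-0810 replicate 1 or DMSO replicate 2 or 3, among others (adjusted p up to 0.139). PSAT1, the next enzyme of that pathway, was not called higher in any comparison with DMSO. It was called once, lower with Fulvestrant 30 nM (1.34, 1.01 and 0.835 TPM, against 3.63, 2.18 and 2.16 TPM, -0.81, adjusted p = 0.0152, and up to 0.102 without Fulvestrant replicate 3 or DMSO replicate 1). Its highest difference was 0.28, with GDC-0810 300 nM. PSAT1 averaged 1.91 TPM, a level at which log2(TPM + 1) understates a fold change. SESN2, a stress-induced regulator of mTORC1, was called once, higher with SAR439859 30 nM (6.07, 4.38 and 6.47 TPM, against 2.93, 3.47 and 2.88 TPM, 0.69, adjusted p = 0.00203, and 0.60 with an adjusted p of 0.0138 without replicate 3). That call was lost when only the libraries compared were fitted (adjusted p = 0.108). CHAC1, a glutathione-degrading enzyme induced by ATF4, was under the limit for testing, with a mean of 0.989 TPM. Its libraries lay at 0 to 3.31 TPM, median 0.806, with the ligands and at 1.49, 1.71 and 0.927 TPM with DMSO, and 2 libraries list it at 0.

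In the full promoters searched, of which the windows printed above are part, 9 tested members had TGATGNAA, 0 of which were called higher than DMSO at least once and 3 lower (IARS, MARS and ATF3), with 6 never called. Of the 27 tested members whose promoter lacks it, 5 were higher at least once (EPRS, QARS, PHGDH, SESN2 and DDIT4), 6 lower and 16 never called. Of all tested genes, with or without the motif, 25.5% were higher at least once and 20.3% lower. The matches of ATF3, AARS and YARS2 lie farther from the start than the printed windows reach. These are counts, given with no test, and the groups are not shown to differ.

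The comparison of each hybrid with its parent ligand asks what the SAR439859 side chain changes on an unchanged scaffold, and uses no DMSO library. On the GDC-0810 scaffold it moved 1 member at each dose, DDIT4, against 1.28% of all tested genes at 30 nM (0.583% higher and 0.701% lower) and 1.25% at 300 nM (0.562% higher and 0.687% lower). DDIT4 averaged 126 ± 7.27 TPM with GDC-SAR 30 nM and 79.2 ± 16.9 TPM with GDC-0810 30 nM (SD, n = 3 each), a log2 difference of 0.68 (95% interval 0.41 to 0.95, adjusted p = 0.00379). At 300 nM it averaged 134 ± 8.14 TPM with GDC-SAR and 84.4 ± 5.37 TPM with GDC-0810, a difference of 0.66 (0.39 to 0.93, adjusted p = 0.00602). The 3 GDC-SAR libraries were above the 3 GDC-0810 libraries at both doses. The 30 nM call was lost without GDC-0810 replicate 1 (adjusted p = 0.0623), and the 300 nM call was kept whichever library was left out.

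On the AZD9496 scaffold DDIT4 did not pass: the difference was 0.24 at 30 nM (-0.03 to 0.51) and 0.16 at 300 nM (-0.11 to 0.43). Instead MARS was lower with the hybrid at both doses. It averaged 49.2 ± 7.23 TPM with AZD-SAR 30 nM and 79.2 ± 4.25 TPM with AZD9496 30 nM, a log2 difference of -0.69 (-0.999 to -0.37, adjusted p = 0.0129), and was the 1 member called, against 1.68% of all genes (0.167% higher and 1.51% lower). At 300 nM it averaged 47.8 ± 6.92 TPM with AZD-SAR and 70.8 ± 4.93 TPM with AZD9496 (-0.57, -0.88 to -0.25, adjusted p = 0.0218). Under median-of-ratios scaling neither MARS call passed (adjusted p = 0.0988 and 0.0617), and the part of all called genes that was higher shifted from 9.917% to 35.94% at 30 nM and from 25.28% to 47.28% at 300 nM. The 30 nM call was also lost without AZD9496 replicate 2 or AZD-SAR replicate 3 (adjusted p up to 0.133).

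At 300 nM 3 members passed between AZD-SAR and AZD9496, against 8.57% of all genes (2.17% higher and 6.4% lower). Beside MARS these were QARS, at 354 ± 54.1 TPM with AZD-SAR and 180 ± 20 TPM with AZD9496 (log2 difference 0.96, 0.44 to 1.49, adjusted p = 0.0197), and FARSA, at 28.8 ± 9.23 TPM with AZD-SAR and 46.8 ± 5.26 TPM with AZD9496 (-0.72, -1.10 to -0.33, adjusted p = 0.0182). In each of the 3 genes the 3 AZD-SAR libraries and the 3 AZD9496 libraries did not overlap. Each of these 3 calls was lost on leaving out any of 4 libraries, at adjusted p of up to 0.0907 for QARS, 0.156 for FARSA and 0.173 for MARS. None of the hybrid-against-parent calls passed when only the 6 libraries compared were fitted.

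ATF4 and ASNS differed between hybrid and parent by -0.24 to 0.14 over the 4 comparisons. For ASNS the 95% intervals reached from -0.63 to 0.46, and for ATF4 from -0.38 to 0.43, and differences inside these intervals cannot be told apart from 0. The plot of hybrid against parent shows these intervals. The amino acid exchanger gene SLC7A5, set beside them as a known ATF4 and MYC target, was lower with the hybrid in all 4 comparisons, with log2 differences from -1.77 (AZD-SAR against AZD9496 at 300 nM) to -1.21 (GDC-SAR against GDC-0810 at 300 nM).

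**Figure D5:**
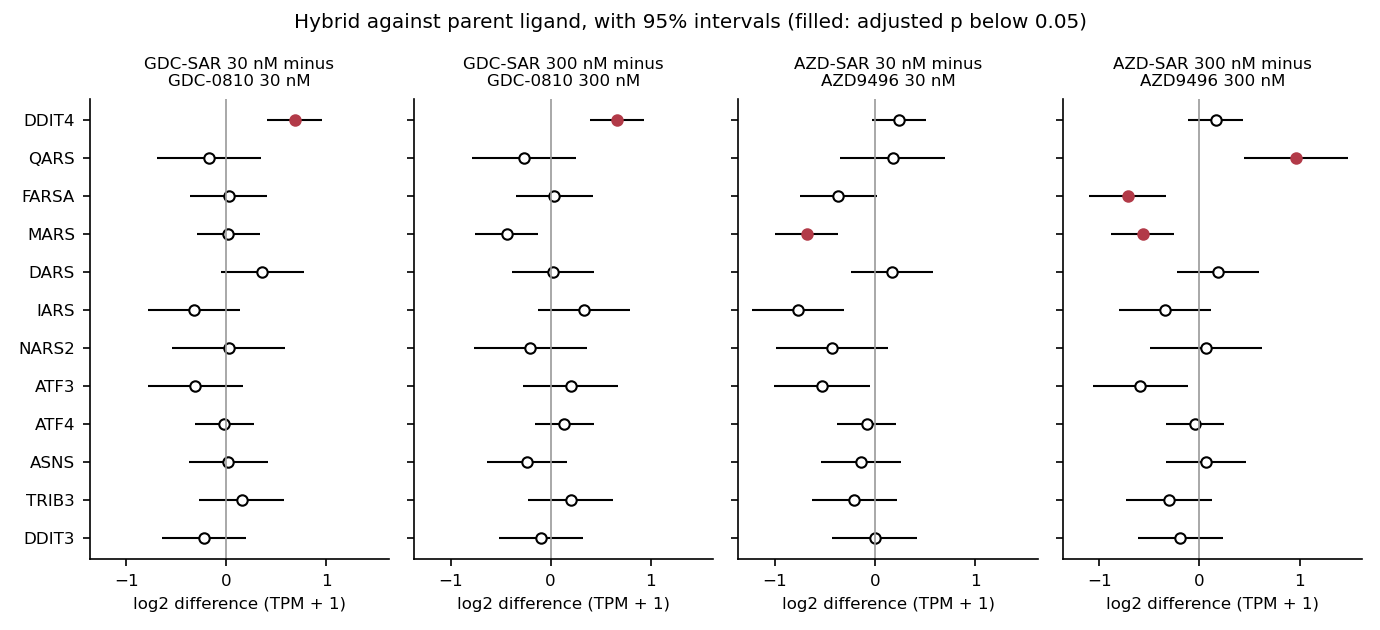
Log2 difference of TPM + 1, hybrid minus parent ligand, with 95% intervals, for 12 members (rows) in the 4 matched comparisons (panels). Filled points passed at adjusted p below 0.05: DDIT4 in both GDC-0810 scaffold panels, MARS in both AZD9496 scaffold panels, QARS and FARSA in the AZD9496 scaffold panel at 300 nM.

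Whether the side chain acts differently on the 2 scaffolds was tested directly, and 0 of 42 members passed at either dose (limma, unadjusted p under 0.05 in 2 members at 30 nM and 9 at 300 nM), against 0% and 0.00694% of all genes. For DDIT4 the difference of differences, AZD9496 scaffold minus GDC-0810 scaffold, was -0.44 at 30 nM (-0.82 to -0.06, adjusted p = 0.891) and -0.50 at 300 nM (-0.88 to -0.12, adjusted p = 0.233). For QARS at 300 nM it was 1.23 (0.49 to 1.97, adjusted p = 0.183), for FARSA -0.75 (-1.30 to -0.21, adjusted p = 0.217) and for MARS at 30 nM -0.71 (-1.15 to -0.26, adjusted p = 0.891). A call on 1 scaffold and not on the other is therefore not shown to differ between them.

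Scaffolds with the same kind of side chain were compared next. Between AZD9496 and GDC-0810, 0 members passed at 30 nM (8 with unadjusted p under 0.05) and 0 at 300 nM (14), against 0.0208% and 1.12% of all genes. Of the genes called at 300 nM, 91.3% were higher with AZD9496, and 52.94% under median-of-ratios scaling. DDIT4 came nearest at 30 nM, with 116 ± 3.15 TPM with AZD9496 and 79.2 ± 16.9 TPM with GDC-0810 (log2 difference 0.57, 0.30 to 0.84, adjusted p = 0.0763). At 300 nM FARSA had 46.8 ± 5.26 TPM with AZD9496 and 30.1 ± 6.10 TPM with GDC-0810 (0.63, 0.25 to 1.02, adjusted p = 0.0624). Between AZD-SAR and GDC-SAR, 0 members passed at 30 nM (1 with unadjusted p under 0.05) and 0 at 300 nM (2), and 0% of all genes did. DDIT4 differed there by 0.13 at 30 nM (-0.14 to 0.40) and -0.14 at 300 nM (-0.41 to 0.13).

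The hybrids were also compared with SAR439859, which carries the same side chain. At 30 nM IARS was lower with GDC-SAR (6.24 ± 1.04 TPM, against 14.4 ± 2.73 TPM with SAR439859, log2 difference -1.09, adjusted p = 0.0311) and WARS was higher (118 ± 9.69 TPM, against 76.3 ± 10.1 TPM, 0.63, adjusted p = 0.0316). These are 2 members, against 0.257% of all genes. IARS was also lower with AZD-SAR (5.91 ± 0.705 TPM, against 14.4 ± 2.73 TPM with SAR439859, -1.15, adjusted p = 0.0367), 1 member against 0.0555% of all genes. All 3 calls were lost without the library that stands apart: without replicate 3 of SAR439859 the adjusted p was 0.148 for IARS and 0.168 for WARS with GDC-SAR, and 0.328 for IARS with AZD-SAR, at differences of -0.95, 0.53 and -1.01. The part of all called genes that was higher shifted under median-of-ratios scaling from 48.65% to 60% with GDC-SAR and from 37.5% to 73.53% with AZD-SAR. At 300 nM 0 members passed with either hybrid (3 each with unadjusted p under 0.05), and 0% of all genes did.

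No member differed between 300 and 30 nM of the same ligand in the limma fit, and 0% of all tested genes did. The unadjusted p was under 0.05 in 3 members for Fulvestrant, 0 for AZD-SAR, 1 for GDC-SAR, 1 for AZD9496, 3 for GDC-0810 and 6 for SAR439859. The widest differences were in CARS2, with 30 ± 12.8 TPM at 300 nM of SAR439859 and 11.8 ± 2.47 TPM at 30 nM (log2 difference 1.22, adjusted p = 0.139), and in IARS, with 7.30 ± 2.20 TPM at 300 nM and 14.4 ± 2.73 TPM at 30 nM (-0.91, adjusted p = 0.13). Without replicate 3 of SAR439859 30 nM, the difference was 1.08 for CARS2 and -0.77 for IARS. DDIT4 differed between doses by -0.20 to 0.11, and QARS by -0.35 to 0.44.

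Asked whether any of the 6 ligands differed from the others at 1 dose, the F test called 6 members at 30 nM (DDIT4, IARS, WARS, EARS2, MARS and SESN2), against 5.11% of all genes, and 3 without replicate 3 of SAR439859. At 300 nM it called 2 (DDIT4 and MARS), against 4.91%. DDIT4 had the smallest adjusted p at both doses (0.000279 and 0.00445). QARS (adjusted p = 0.748 at 30 nM and 0.132 at 300 nM), DARS (0.619 and 0.584), FARSA (0.168 and 0.0841) and ATF3 (0.462 and 0.204) did not pass.

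Upstream of ATF4, 7 genes for the eIF2α kinases, phosphatase subunits and eIF2α itself were tested. EIF2S1 and EIF2AK3 are named as called examples and do not give the direction of the list. EIF2S1, which encodes eIF2α, was lower in all 12 comparisons with DMSO, with 49.3 ± 15.1 TPM with GDC-0810 300 nM and 70.8 ± 4.37 TPM with AZD9496 30 nM at the ends of its range, against 109 ± 12.3 TPM with DMSO (log2 difference -1.17 to -0.62). EIF2AK3, which encodes the endoplasmic reticulum kinase PERK, was higher with AZD-SAR, GDC-SAR and GDC-0810 at both doses and with SAR439859 300 nM, with log2 differences of 0.95 to 1.07. GDC-SAR 300 nM, for instance, had 16.8 ± 1.86 TPM, against 7.56 ± 1.99 TPM with DMSO. In the F test among ligands neither gene passed, with adjusted p of 0.349 and 0.315 for EIF2S1 and 0.864 and 0.595 for EIF2AK3 at 30 and 300 nM.

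Other genes of the pathway were read in lists chosen with earlier results of these data known. Per comparison with DMSO, 3.71% to 15.3% of all tested genes were higher and 2.05% to 12.8% lower. The counts of the lists are set beside these shares and were not tested. Among 7 other stress transcription factors, ATF5 is named as a called example and does not give the direction of the list. ATF5 was lower with all ligands but AZD9496, at 35.3 ± 1.44 TPM with SAR439859 300 nM, against 62.0 ± 10.7 TPM with DMSO (-0.78, adjusted p = 0.000285). In the F test among ligands ATF5 did not pass at 30 or 300 nM (adjusted p = 0.0999 and 0.131). Of 9 tested enzymes of serine, one-carbon and proline metabolism, 0 to 3 were lower in a comparison and 0 or 1 higher. MTHFD2, a mitochondrial folate enzyme, was lower with all ligands but AZD9496, at 31.4 ± 7.30 TPM with SAR439859 30 nM, against 72.3 ± 0.663 TPM with DMSO (-1.20, adjusted p = 1.43e-06). Among ligands MTHFD2 passed the F test at 30 nM (adjusted p = 0.0189) and not at 300 nM (adjusted p = 0.0892). SHMT2, the mitochondrial serine hydroxymethyltransferase, passed in 8 comparisons, down to -0.92 with AZD-SAR 300 nM. PHGDH was higher with AZD-SAR 300 nM and with GDC-0810 at both doses, and MTHFD2 and SHMT2 were lower with the same ligands and doses.

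Of 6 other ATF4 targets tested, 1 to 3 were higher and 0 to 3 lower per comparison. FAM129A was higher in all 12, up to 5.90 ± 1.33 TPM with SAR439859 30 nM, against 2.06 ± 0.166 TPM with DMSO (1.16, adjusted p = 1.18e-06). STC2, the secreted glycoprotein stanniocalcin, was lower in the 10 comparisons without AZD9496, down to 8.07 ± 0.987 TPM with GDC-SAR 30 nM, against 44.3 ± 4.40 TPM with DMSO (-2.32, adjusted p = 1.3e-06). Of 8 tested amino acid transporters, 0 to 5 were lower and 0 or 1 higher. SLC7A5 had 23.4 ± 1.57 TPM with SAR439859 300 nM and 91.6 ± 11.1 TPM with AZD9496 300 nM, against 90.8 ± 6.18 TPM with DMSO (-1.91 and 0.01). Its partner SLC3A2 was lower with all ligands but AZD9496 (-0.89 to -0.46). Among ligands SLC3A2 passed the F test at 300 nM (adjusted p = 0.00215) and not at 30 nM (adjusted p = 0.0617). Of 13 partners and further enzymes of tRNA charging, among them AIMP1, AIMP2 and the tRNA exporter XPOT, 0 were higher in any comparison and 0 to 2 lower. The shares of all tested genes given above stand beside these counts too.

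Within groups, levels of several members varied together from library to library, which is given as a description. Over the 39 libraries, the deviations from the group mean of log2(TPM + 1) correlated at 0.83 between QARS and PHGDH, 0.85 between IARS2 and PHGDH and 0.78 between FARSA and TRIB3. These were the largest values among all pairs of tested members. Other pairs went in opposite directions, such as IARS and LARS2 (-0.59) and FARSA and FARSB (-0.53). Genes outside the set were not examined in this way. Both genes of a pair share each library and its total, to which TPM values are scaled.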

How the data were processed

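RNA-seq of 39 libraries in 13 groups of 3 was read from the table the authors deposited, which gives TPM per gene symbol, normalized by the authors for transcript length and library total. STAR and GRCh38 are named per the submitters' processing notes, while a counting tool and a gene annotation are named in none of the sources used here. TPM keeps no read depth, so depth is unknown and no counting interval is given. Groups came from the labels, and replicate numbers only name libraries in accession order.

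Values were tested as log2(TPM + 1) for the 14404 of 46706 genes that averaged 1 TPM or more across all 39 libraries, with limma 3.58.1 in R 4.3.3: 1 mean per group over all 13 groups, moderated variances with a trend, Benjamini-Hochberg adjustment within each comparison, threshold 0.05. Comparisons were each ligand against DMSO, hybrid against parent, scaffold against scaffold, hybrid against SAR439859, 300 against 30 nM, scaffold by side chain, and an F test among 6 ligands at each dose. Log2 differences understate changes of genes at low TPM. The script was tested on simulated data. Tables and figures used Python 3.11.15, pandas 2.3.3 and matplotlib 3.10.9, and promoter sequences came from RefSeq. By rule, the text names ATF4, DDIT3, ASNS and TRIB3, in each subset the 5 members called most often against DMSO (ties by mean absolute difference) and the 2 most abundant of those called least, the called members of the comparisons between ligands, 2 to 4 called examples per pathway list, and members under the filter. Further called members (EPRS and VARS among them) were named after their values were seen. The stress transcription factors depart from the rule with 1 called example, and the partners of tRNA charging are named with no call given. The members and lists were chosen with earlier results of these data known. Alternatives were a pseudocount of 0.1, no expression filter, median-of-ratios scaling, a fit restricted to the groups in the comparison, and omission of single libraries in turn.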

Additional observations from a re-analysis of the deposited data

How the results depend on the processing

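Of the 90 member calls, 86 were kept with a pseudocount of 0.1, 69 with no expression filter, 86 with median-of-ratios scaling and 58 with only the libraries compared fitted. In the same order, 1, 0, 21 and 25 calls were gained that the main fit did not make. Leaving out 1 library kept 378 of 540, lost 162 and gained 40, and 0 results changed direction under any of these alternatives. The causes were not tested. No paired analysis was possible because the labels give no replicate numbers that tie libraries across groups. Depth is unknown, so the limits on precision are those of 3 libraries a group.

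With only the libraries compared, members called against DMSO became 11 for Fulvestrant 30 nM (7 in the full fit), 2 for SAR439859 30 nM (11), 8 for Fulvestrant 300 nM (5) and 4 for AZD-SAR 300 nM (8). They became 0 in all 4 hybrid against parent comparisons (1, 1, 1 and 3) and in both hybrid against SAR439859 comparisons at 30 nM (2 and 1), and 3 (6) and 1 (2) in the F tests at 30 and 300 nM. With no expression filter they became 7 for SAR439859 30 nM (11), 3 for GDC-0810 30 nM (7), 4 for GDC-0810 300 nM (9), and 3 and 1 in the F tests. With median-of-ratios scaling they became 9 for Fulvestrant 300 nM (5), 2 for AZD9496 300 nM (1), 0 for AZD-SAR against AZD9496 30 nM (1), 2 for AZD-SAR against SAR439859 30 nM (1) and 1 in the F test at 300 nM (2).

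Leaving out 1 library gave counts against DMSO at 30 nM of 4 to 6 for Fulvestrant, 5 to 7 for AZD-SAR, 5 to 8 for GDC-SAR, 1 to 3 for AZD9496, 1 to 7 for GDC-0810 and 6 to 12 for SAR439859. At 300 nM they were 3 to 8 for Fulvestrant, 6 to 12 for AZD-SAR, 5 to 8 for GDC-SAR, 1 to 2 for AZD9496, 2 to 8 for GDC-0810 and 4 to 8 for SAR439859. For GDC-SAR against GDC-0810 they were 0 to 1 at 30 nM and 1 at 300 nM, and for AZD-SAR against AZD9496 0 to 1 and 0 to 5. For AZD9496 against GDC-0810 they were 0 to 1 at 30 nM and 0 to 2 at 300 nM, and against SAR439859 30 nM 0 to 3 for GDC-SAR and 0 to 2 for AZD-SAR. The dose comparison of SAR439859 gave 0 to 3, scaffold by side chain at 300 nM 0 to 3, and the F tests 3 to 6 at 30 nM and 1 to 4 at 300 nM.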
